A study of Mus musculus with 7 samples.

Results

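Genes for histone modifiers and chromatin remodelers were followed over 7 arrays of mouse bone marrow. They were chosen by name alone: a gene was taken when the platform annotation gave its probe sets a single symbol of the Kdm, Kmt, Setd, Nsd, Ehmt, Suv39, Hdac, Sirt, Kat, Prmt, Smarc, Arid, Chd, Brd or Ino80 series. This gave 99 of 8378 genes, measured by 190 probe sets, and 55 of the 99 had more than 1 probe set. The deposited values keep only probe sets with a Present or Marginal call on every array, so a gene that was not detected on some array is not analysed here.

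All marrow came from recipients of a bone marrow transplant (BMT), so every group shares the transplantation. The control group, called mock, holds 3 arrays of unsorted marrow carrying a mock control transgene. The ABCG2 group holds 2 arrays of unsorted marrow carrying an ABCG2 transgene, a drug efflux transporter found on primitive blood cells. Marrow carrying the transgene EZH2-Mt, from recipients described as MDS-like (MDS taken as myelodysplastic syndrome), was sorted on GFP (green fluorescent protein), with 1 array of GFP-negative and 1 of GFP-positive cells. EZH2 is the methyltransferase subunit of Polycomb repressive complex 2, and the labels do not say which mutation Mt stands for. Strain, age, vector, promoter and time after transplantation are not stated in the labels. The labels name a recipient mouse for each array without numbering the animals; a p-value here therefore reflects only how far these arrays scatter, which may be technical.

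Chromatin is controlled by proteins that write, erase and read chemical marks on histone tails, and by remodelers that move or eject nucleosomes with the energy of ATP. Acetylation of lysines opens chromatin and is removed by deacetylases and sirtuins, while methylation of lysines or arginines can mark active or silent genes according to the residue. In bone marrow these enzymes and their complexes set which lineage genes a stem cell keeps open, and genes of this class are often mutated in leukemia and myelodysplasia. The family names are looser than the function. Ino80dos is a long noncoding RNA, Sirt3 and Sirt5 act in mitochondria, Setd3 methylates actin, and Setd6 is best known for methylating the NF-kappaB subunit RelA.

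Values are log signals, taken as log2, that the authors centred so that each probe set has a median of 0 over the 7 arrays. They show a gene against itself on other arrays and carry no absolute level, so genes are not ranked by level. Differences are the mean of the ABCG2 arrays less that of the mock arrays, in log2, with limma's standard error (SE), 3 arrays against 2, and "rose" or "fell" means a Benjamini-Hochberg adjusted p under 0.05 over all 8378 genes. Folds assume base 2.

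The ABCG2 arrays differed from mock in much more than these genes. Of 8378 genes, 61.8% passed the test in either direction. Markers of mature myeloid cells were lower: all 13 measured of 16 listed neutrophil markers fell, with a median difference of -5.66, and all 8 measured monocyte and macrophage markers fell, with a median of -4.04. Of 5 measured stem and progenitor markers 3 rose, with a median of 2.65. All 4 measured megakaryocyte and platelet markers fell, with a median of -1.75. Of 5 measured B lineage markers 2 rose and none fell. Of 3 measured T and NK markers 2 rose and 1 fell, and of 5 measured erythroid markers 1 rose and 1 fell. Within bulk marrow, fewer cells of a type and less RNA per cell cannot be told apart. The array controls moved as well: the probe sets of the bacterial control transcript bioB read -3.12 and -3.38 on the ABCG2 arrays, -0.09 to 0 on mock, 0.98 on GFP-negative and 2.49 on GFP-positive. The signal of the 3′ over the 5′ actin control was 0.40 and 0.42 on the ABCG2 arrays and -0.05 to 0.04 on mock. The titles of the ABCG2 arrays alone carry a tag, ser2, of unstated meaning, and if it marks a batch, batch and transgene cannot be told apart. The part of cell makeup and of these technical values in the results on chromatin genes was not tested. The mouse probe sets do not check the labels, because the species of the transgenes is not given: Abcg2 was lower on the ABCG2 arrays, by -0.86 ± 0.13, and Ezh2 read -0.14 on GFP-negative and -0.16 on GFP-positive cells.

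In ABCG2 marrow 38 of the 99 genes rose and 15 fell. Over all genes 35.6% rose and 26.2% fell, against 38.4% and 15.2% of the chromatin genes. A rise of at least 2-fold that passed the test was seen in 17 (16.5% of all genes) and a fall of that size in 5 (14.3% of all genes). Both ABCG2 arrays lay above all mock arrays in 46 (44.2% of all genes) and below them in 23 (32.7% of all genes), and in all 53 genes that rose or fell the groups did not overlap. The median difference was 0.21, beside 0.15 over all genes. The share that rose was near that of the background, and the share that fell was smaller than the background by count; the difference between these shares was not tested. The other 46 genes did not pass, and 26 of these had differences under 0.25 in size. The interval still allows modest change for such genes: Setd2, which methylates histone H3 over transcribed gene bodies, named after its values were seen, had a difference close to 0 with a 95% interval from -0.33 to 0.33.

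**Figure D1:**
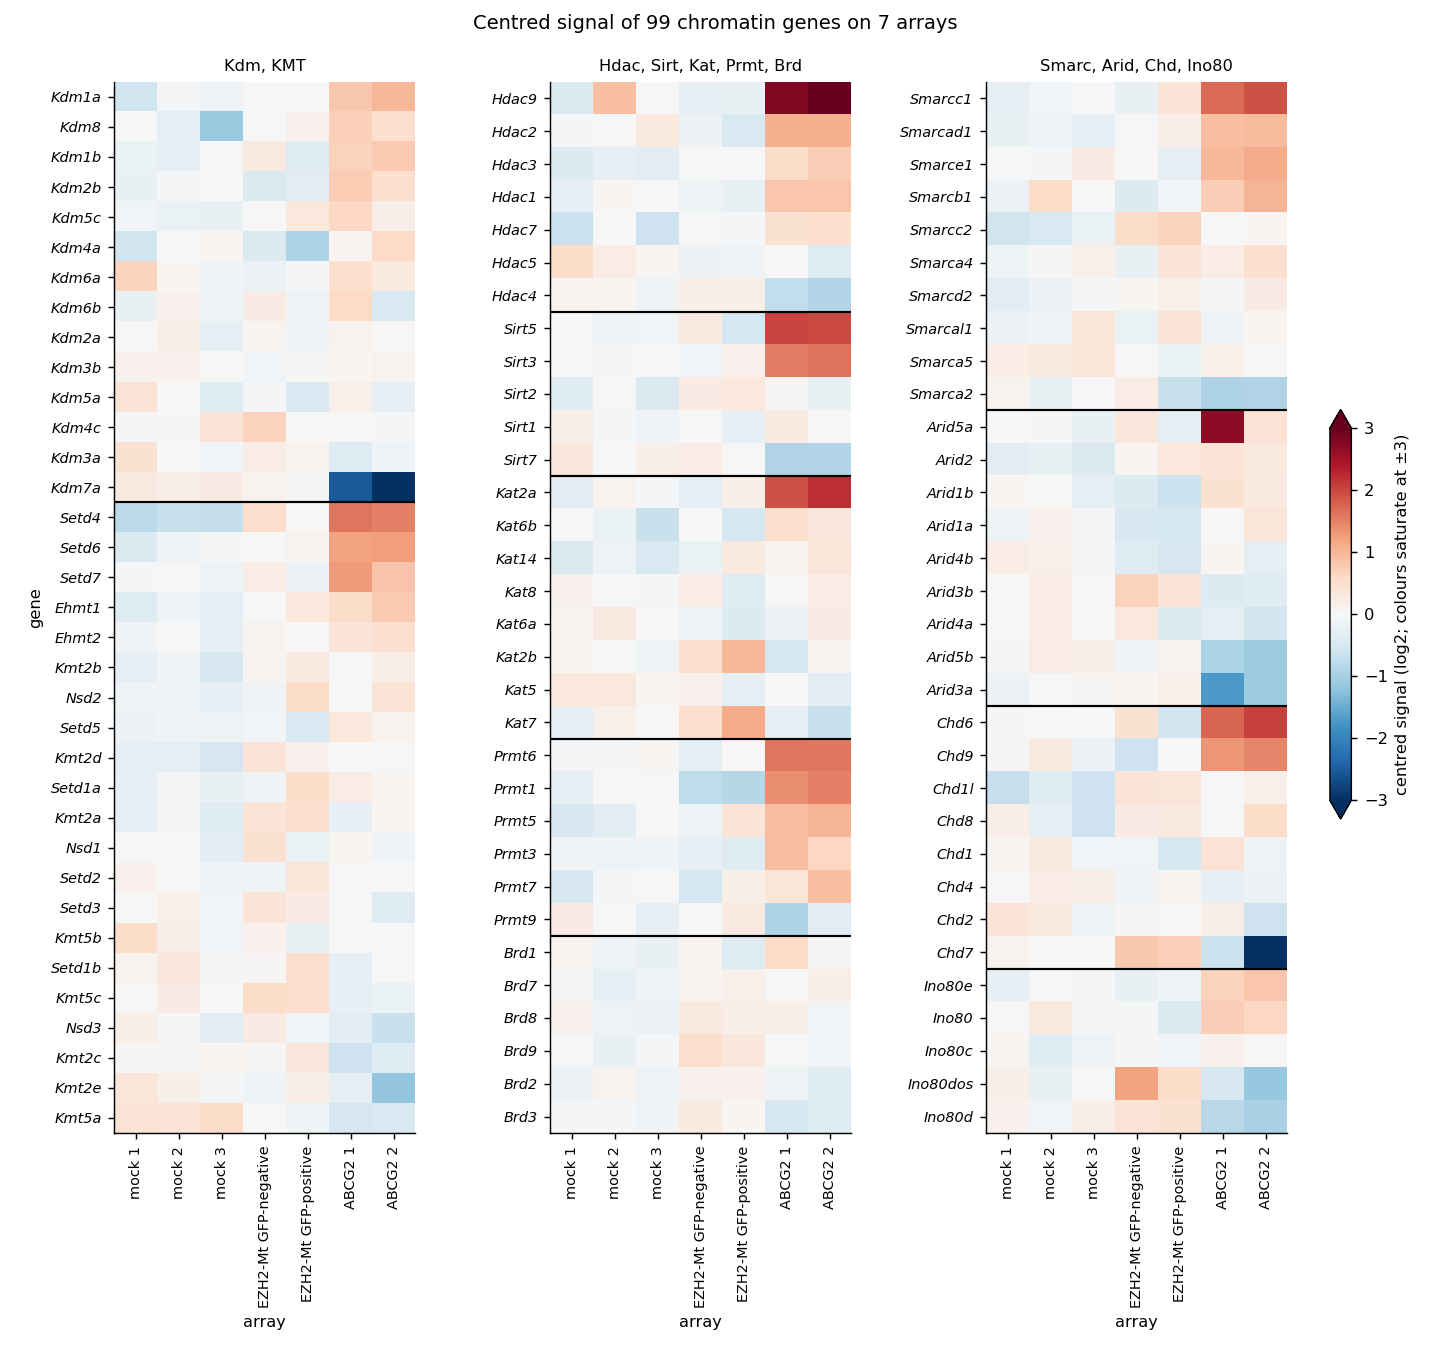
Centred log2 value of each of the 99 genes (rows, by family and then by difference) on the 7 arrays (columns), with red above and blue below 0 and the colours saturated at 3 either way. The 2 ABCG2 columns carry most of the strong colours: the SD over the genes was 0.82 and 0.95 there, 0.22 to 0.28 on mock arrays, 0.32 on GFP-negative and 0.38 on GFP-positive.

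The deepest fall and some of the highest rises came from genes whose probe sets all passed alike. Kdm7a, a Jumonji demethylase that removes repressive methyl groups from histone H3, read 0.27, 0.17 and 0.24 on the mock arrays, 0.10 and -0.06 on GFP-negative and GFP-positive, and -2.53 and -2.99 on the ABCG2 arrays. The ABCG2 arrays stood alone far below the other 5. The difference was -2.99 ± 0.17 (limma adjusted p = 3.54e-05), a fall of 7.92-fold, and its 3 probe sets spanned only -3.12 to -2.87. Kat2a (GCN5), the acetyltransferase of the SAGA and ATAC coactivator complexes, read -0.34, 0.10 and -0.07 on mock, -0.28 and 0.18 on the EZH2-Mt fractions, and 1.91 and 2.22 on the ABCG2 arrays. It rose by 2.17 ± 0.18 (limma adjusted p = 0.000141), or 4.49-fold.

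The stretches of 250 bases before the start of 4 such genes are printed, because among the genes with several probe sets, all passing alike, and a promoter in the table used, these fell most (Kdm7a and Kmt5a) and rose most (Kat2a and Sirt5). Ino80d, which fell slightly more than Kmt5a, was not matched there. They come from RefSeq on GRCm38.p6, 5′ to 3′ on the gene's strand, at the first start the table lists: Kdm7a at chr6:39206774-39207023 (minus strand), Kmt5a at chr5:124439680-124439929 (plus, the first of 3 starts), Kat2a at chr11:100712468-100712717 (minus) and Sirt5 at chr13:43365285-43365534 (plus). Capitals mark CCGGAAG, a core of the ETS family, and CCAAT, the box bound by NF-Y, each searched on both strands.
Kdm7a: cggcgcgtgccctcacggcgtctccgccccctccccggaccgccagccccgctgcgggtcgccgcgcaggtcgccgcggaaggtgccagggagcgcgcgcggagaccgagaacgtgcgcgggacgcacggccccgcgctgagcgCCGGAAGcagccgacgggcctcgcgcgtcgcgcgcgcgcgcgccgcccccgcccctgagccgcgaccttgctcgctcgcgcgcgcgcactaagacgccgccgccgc
Kmt5a: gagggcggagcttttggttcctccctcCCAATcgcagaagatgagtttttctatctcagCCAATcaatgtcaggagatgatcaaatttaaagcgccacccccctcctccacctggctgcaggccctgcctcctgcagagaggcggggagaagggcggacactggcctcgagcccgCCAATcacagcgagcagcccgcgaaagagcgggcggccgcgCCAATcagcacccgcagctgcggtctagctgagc
Kat2a: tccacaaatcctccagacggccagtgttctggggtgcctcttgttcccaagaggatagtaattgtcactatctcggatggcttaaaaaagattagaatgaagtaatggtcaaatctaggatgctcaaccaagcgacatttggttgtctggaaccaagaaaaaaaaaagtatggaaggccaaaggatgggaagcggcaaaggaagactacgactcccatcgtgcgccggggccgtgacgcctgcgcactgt
Sirt5: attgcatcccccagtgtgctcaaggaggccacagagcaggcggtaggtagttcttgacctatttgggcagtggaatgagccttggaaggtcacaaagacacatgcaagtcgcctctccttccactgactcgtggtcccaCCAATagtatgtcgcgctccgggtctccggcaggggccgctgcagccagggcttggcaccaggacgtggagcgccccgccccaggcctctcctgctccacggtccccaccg
The 2 falling genes look unlike each other. Kdm7a holds 56 CpG pairs and 1 ETS core, whereas Kmt5a holds 16 CpG pairs and 4 CCAAT boxes. Kat2a has 11 CpG pairs and none of the motifs searched, and Sirt5 has 13 CpG pairs and 1 CCAAT box.

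Promoters of the same length were matched for 76 of the 99 genes. Their median was 18 CpG pairs, beside 6 over the 27025 genes of the table. CCAAT was found in 36.8% of the 76 and 34.5% of all, the E-box CACGTG in 9.21% and 6.05%, and TATAAA in 3.95% and 13% (both strands, each motif counted on its own even where matches overlap). CCGGAAG was found in 11.8% of the 76 and 7.05% of all: 4 of the 34 matched genes that rose, 4 of the 10 that fell and 1 of the 32 that did not pass. A match to letters is a description and says nothing of a factor's binding, and the counts are small.

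**Figure D2:**
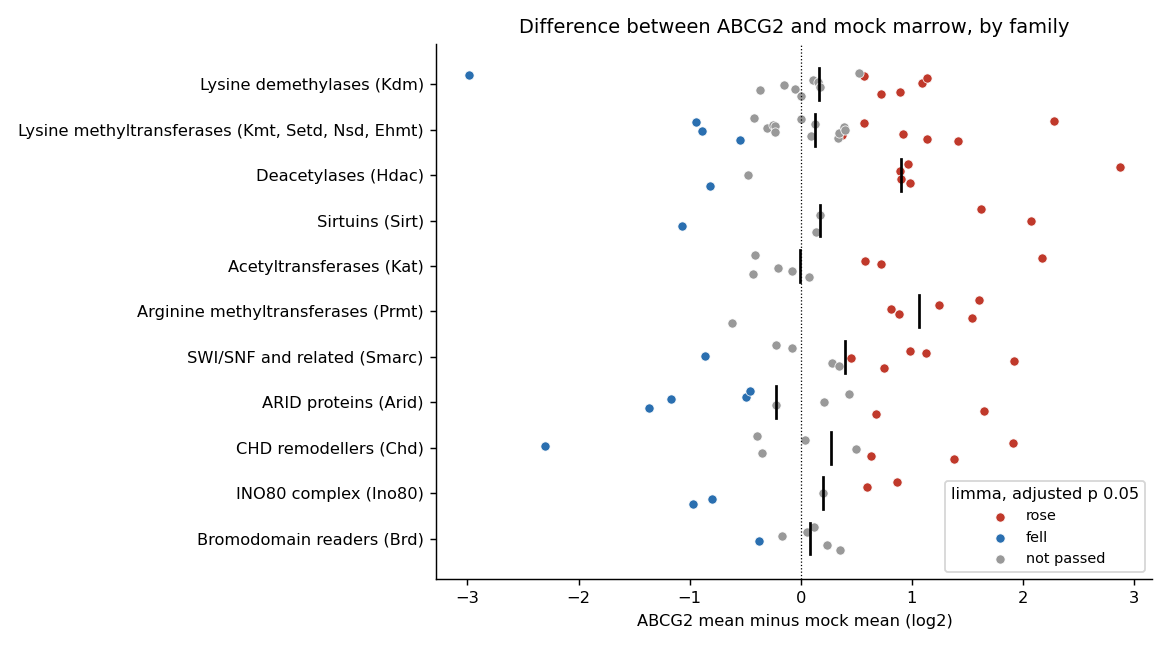
Difference between ABCG2 and mock in log2 (horizontal axis) for each gene (points, red where it rose, blue where it fell, grey where it did not pass), by family (rows), with the family's median as a black line. Prmt and Hdac genes have the highest medians, 1.07 and 0.90, and Arid has the lowest, -0.22.

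The counts by family that follow are of few genes and stand beside 35.6% of all genes that rose and 26.2% that fell. Differences between a family and these shares were not tested. Among the writers, the arginine methyltransferases moved most uniformly: 5 of 6 rose, none fell, and the median difference was 1.07. Prmt1, which makes most asymmetric dimethylarginine, read -0.29, 0 and 0.01 on mock and 1.40 and 1.5 on the ABCG2 arrays. On both EZH2-Mt fractions it read lower than on any mock array, at -0.76 and -0.85. Prmt1 rose by 1.54 ± 0.15 (limma adjusted p = 0.000271) in ABCG2 marrow. Prmt6, which methylates histone H3 in a way that opposes active promoter marks, kept to -0.06 to 0.09 on mock and reached 1.61 and 1.58, a rise of 1.61 ± 0.13. Prmt5, the main enzyme for symmetric dimethylarginine, which also modifies spliceosome proteins, rose by 1.25 ± 0.18, from -0.51, -0.32 and 0 to 0.92 and 1.02. The groups did not overlap in these, as in every gene that rose or fell. Prmt9, an arginine methyltransferase of a splicing factor, was the 1 that did not pass, at -0.62 ± 0.23 (limma adjusted p = 0.0542). Of the 5 rises, that of Prmt7 was lost without ABCG2 replicate 2, where the difference was 0.54 (limma adjusted p = 0.104), and under quantile normalization (0.62, limma adjusted p = 0.141). That setting lowered the rises of Prmt1 and Prmt6 to 0.96 and 0.92, with the calls kept.

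The lysine methyltransferases were mixed, with 6 of 21 rising, 3 falling and 12 not passing, and a median of 0.13. Setd4, a SET-domain protein with described histone substrates, read -0.78, -0.67 and -0.71 on mock, 0.54 and 0 on GFP-negative and GFP-positive, and 1.60 and 1.52 on the ABCG2 arrays. All 4 arrays outside the mock group lay above all 3 mock arrays. In ABCG2 marrow Setd4 rose by 2.28 ± 0.13 (limma adjusted p = 3.28e-05), and Setd6 and Setd7, a monomethyltransferase of histone H3 and many other proteins, rose by 1.42 ± 0.16 and 1.14 ± 0.17. Under quantile normalization Setd7 rose by 0.70.

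Kmt5a, the enzyme that places single methyl groups on histone H4 lysine 20 during the cell cycle, showed the clearest fall of this family. Its values were 0.43, 0.42 and 0.54 on mock and -0.50 and -0.47 on the ABCG2 arrays, with both EZH2-Mt fractions between these groups at -0.02 and -0.13. The difference was -0.95 ± 0.13 (limma adjusted p = 0.000935). Kmt2c, a catalytic subunit of the COMPASS-like complexes of enhancers, fell by -0.55 ± 0.13 (limma adjusted p = 0.0115), a call lost without ABCG2 replicate 1 (-0.43, limma adjusted p = 0.0526). Kmt2e, a relative that lacks methyltransferase activity, fell by -0.89 ± 0.28 (limma adjusted p = 0.0307), but its ABCG2 arrays read -0.28 and -1.18. The 5 probe sets of Kmt2e ran from -1.55 to 0.16, and 2 of them passed, both downward. The Kmt2e difference was -0.44 without ABCG2 replicate 2 and -1.34 without ABCG2 replicate 1, and the call was lost without the former and without mock replicate 1 (-0.78) or 2 (-0.88). Quantile normalization also ended the calls of Kmt2c (-0.46, limma adjusted p = 0.0794) and Kmt2e (-0.74, limma adjusted p = 0.0749).

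Kat2a had the largest difference among the acetyltransferases, of which 3 of 8 rose, none fell and the median was -0.01. Kat6b, of the MOZ/MORF complex, rose by 0.72 ± 0.21 and Kat14, a subunit of ATAC, by 0.58 ± 0.17. These 2 calls were less firm: Kat6b was lost without mock replicate 2 (0.76, limma adjusted p = 0.0563) or ABCG2 replicate 1 (0.62, limma adjusted p = 0.0978), and Kat14 without mock replicate 1 (0.54), mock replicate 3 (0.53) or ABCG2 replicate 2 (0.44). Under quantile normalization the Kat6b call was lost (0.74, limma adjusted p = 0.147) and Kat2a rose by 1.40. Kat2b, the paralog of Kat2a, did not pass at -0.20 ± 0.20, and the sign of its difference turned with the choice of probe set.

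**Figure D3:**
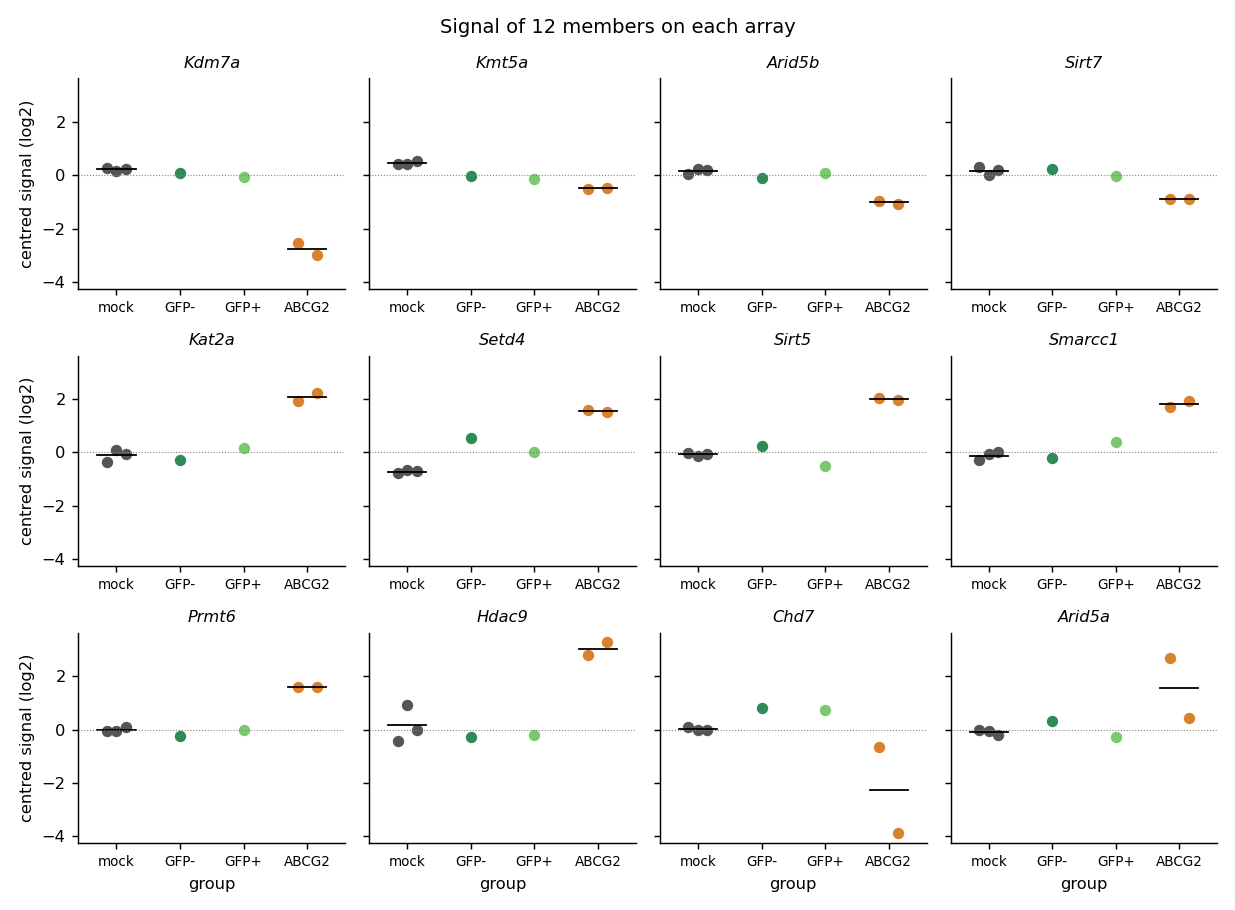
Centred log2 value (vertical axis) on each of the 7 arrays (points, by group) for genes that the text describes, with a bar at the mean of groups holding more than 1 array. Kdm7a is at -2.53 and -2.99 on the ABCG2 arrays and between -0.06 and 0.27 on the others, and Kat2a is at 1.91 and 2.22 on the ABCG2 arrays and between -0.34 and 0.18 on the others.

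Among the erasers, 5 of 7 deacetylases rose and 1 fell, with a median of 0.90. The 3 measured class I enzymes, Hdac1, Hdac2 and Hdac3, catalytic cores of the Sin3, NuRD, CoREST and NCoR corepressor complexes, all rose. Hdac8, also of class I, was not among the genes measured. Hdac2 read -0.04, -0.01 and 0.29 on mock and 1.06 and 1.07 on the ABCG2 arrays, a rise of 0.98 ± 0.15. Hdac3 rose by 0.96 ± 0.14, from -0.41, -0.24 and -0.31 to 0.55 and 0.74, and Hdac1 by 0.90 ± 0.15, from -0.26, 0.05 and 0 to 0.83 and 0.84. None of the 3 overlapped between groups, which held for every gene that rose or fell. Under quantile normalization the Hdac3 call held (0.90), and those of Hdac2 (0.40, limma adjusted p = 0.258) and Hdac1 (0.51, limma adjusted p = 0.121) were lost.

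The class IIa deacetylases, which shuttle between nucleus and cytoplasm with the signals a cell receives, split. In the deposited scaling Hdac9 had the largest rise of the 99 genes, 2.87 ± 0.39 (limma adjusted p = 0.000989), with 2.79 and 3.28 on the ABCG2 arrays and a wide mock spread of -0.43, 0.91 and 0. Hdac7, known for its role in B lymphocyte identity, rose by 0.90 ± 0.22 (limma adjusted p = 0.0122), from -0.65, 0.01 and -0.61 to 0.45 and 0.51. Hdac4 went the other way, from 0.08, 0.07 and -0.12 on mock to -0.75 and -0.87, a fall of -0.82 ± 0.14 (limma adjusted p = 0.00237), and Hdac5 did not pass at -0.47 ± 0.20 (limma adjusted p = 0.0784). Beside the rise of Hdac7, 2 of 5 measured B lineage markers (12 listed) rose, with a median of 0.77 over the 5, where 35.6% of all genes rose. The 2 were Cd79b and Il7r, while Ighm was at -1.54 and did not pass. The part of B cells in the rise of Hdac7 was not tested. All 3 class IIa calls were lost under quantile normalization, with differences of 1.69 for Hdac9, 0.93 for Hdac7 and -0.55 for Hdac4 (limma adjusted p = 0.0702, 0.108 and 0.0702).

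The sirtuins split as well: of 5, the mitochondrial Sirt3 and Sirt5 rose and the nucleolar Sirt7 fell, with a median of 0.17. Sirt5, which removes succinyl and malonyl groups, read -0.02, -0.12 and -0.07 on mock and 2.03 and 1.97 on the ABCG2 arrays, a rise of 2.08 ± 0.12 (limma adjusted p = 4.19e-05). Sirt3, the main mitochondrial deacetylase, rose by 1.62 ± 0.12 (limma adjusted p = 9.26e-05), from -0.01, -0.07 and 0 to 1.57 and 1.62. Sirt7, a deacetylase linked to transcription of ribosomal RNA genes, fell by -1.07 ± 0.15 (limma adjusted p = 0.00107), from 0.33, 0 and 0.20 to -0.90 and -0.89. The groups did not overlap in these, as in every gene that rose or fell. Sirt1, the main nuclear enzyme, and Sirt2, mainly cytoplasmic, did not pass at 0.13 ± 0.16 and 0.17 ± 0.18. Quantile normalization lowered the rises of Sirt5 and Sirt3 to 1.34 and 0.99, with the calls kept.

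Of the 14 demethylases, 5 rose (35.6% of all genes), Kdm7a alone fell (26.2% of all genes) and 8 did not pass, with a median of 0.16. The paired flavin-dependent enzymes both rose: Kdm1a (LSD1), the demethylase of the CoREST corepressor, by 1.14 ± 0.20 (limma adjusted p = 0.00292), and Kdm1b by 0.89 ± 0.14 (limma adjusted p = 0.00177). Kdm1a read -0.59, -0.03 and -0.11 on mock and 0.80 and 0.99 on the ABCG2 arrays. Kdm8, a Jumonji protein with hydroxylase activity, rose by 1.09 ± 0.32 (limma adjusted p = 0.0244), but mock replicate 3 read -1.12 while the other mock arrays read 0 and -0.29, and the call was lost without ABCG2 replicate 1 (0.98, limma adjusted p = 0.0903) or 2 (1.2, limma adjusted p = 0.0541). All 3 calls were lost under quantile normalization, at 0.89 for Kdm1a, 0.64 for Kdm1b and 1.31 for Kdm8 (limma adjusted p = 0.0668, 0.0557 and 0.157).

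Among the remodelers, 5 of 10 Smarc genes rose and 1 fell, with a median of 0.40. The name covers subunits of the SWI/SNF (BAF) complexes but also Smarcad1, Smarca5 and Smarcal1, which are not part of them. Smarcc1 (BAF155), a scaffold subunit, read -0.27, -0.08 and 0 on mock and 1.70 and 1.91 on the ABCG2 arrays, a rise of 1.92 ± 0.15 (limma adjusted p = 0.000104). Smarce1 (BAF57), another core subunit, rose by 0.99 ± 0.15, and Smarcad1, a remodeler outside BAF that acts at replicating and heterochromatic DNA, by 1.13 ± 0.12. Smarca2 (BRM), 1 of the alternative ATPases of BAF, fell by -0.87 ± 0.15 (limma adjusted p = 0.00253). Its 2 probe sets disagreed, at -2.10 ± 0.17 and 0.37 ± 0.20, so the fall rests on 1 of them. The alternative ATPase Smarca4 (BRG1), named after its values were seen, did not pass at 0.34 ± 0.16, and its 2 probe sets disagreed as well: 1 rose by 1.0 ± 0.16 and the other read -0.32 ± 0.18. Under quantile normalization the calls of Smarce1 (0.47, limma adjusted p = 0.171) and Smarca2 (-0.50, limma adjusted p = 0.151) were lost, and Smarcc1 rose by 1.28.

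The Arid family, which binds DNA through the AT-rich interaction domain, had most of its calls downward: 4 of 9 fell and 2 rose, with a median of -0.22. Arid3a (Bright), a factor of B lymphocytes and early progenitors, fell by -1.36 ± 0.21 (limma adjusted p = 0.00166), from -0.17, 0 and 0.05 on mock to -1.72 and -1.09. Arid5b, the DNA-binding partner of a histone demethylase, fell by -1.16 ± 0.13 (limma adjusted p = 0.000514), from 0.04, 0.23 and 0.19 to -0.96 and -1.07. Both falls cleared the mock range on each ABCG2 array, as did every fall that passed. Arid4a, a subunit of the Sin3 deacetylase complex, fell by -0.49 ± 0.15 (limma adjusted p = 0.0261), a call lost without mock replicate 2 (-0.42), mock replicate 3 (-0.53) or ABCG2 replicate 2 (-0.37). The 2 probe sets of Arid4a disagreed, at -1.13 ± 0.17 and 0.14 ± 0.17, so its fall rests on 1 of them. Arid2, the defining subunit of the PBAF form of SWI/SNF, rose by 0.68 ± 0.13 (limma adjusted p = 0.00503). Arid5a, which stabilizes inflammatory messenger RNAs, passed upward at 1.65 ± 0.58 (limma adjusted p = 0.0448) on unequal arrays of 2.68 and 0.44; the difference was 0.53 without ABCG2 replicate 1 and 2.76 without ABCG2 replicate 2, and the call was lost without mock replicate 1 (1.69), 2 (1.67) or 3 (1.58). Quantile normalization also ended the calls of Arid5a (1.10, limma adjusted p = 0.0882) and Arid4a (-0.45, limma adjusted p = 0.149), and lowered the fall of Arid3a to -0.85 with the call kept.

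Of the 8 Chd helicases 3 rose and 1 fell, with a median of 0.27, and the split ran through the closely related group of Chd6 to Chd9. Chd6, which has been linked to the response to oxidative stress, was at -0.04, 0 and -0.01 on mock and 1.74 and 2.05 on the ABCG2 arrays, a rise of 1.91 ± 0.14 (limma adjusted p = 9.04e-05). Chd9 rose by 1.38 ± 0.17 (limma adjusted p = 0.000745), and Chd1l, a remodeler recruited by poly-ADP-ribose to damaged DNA, by 0.63 ± 0.15 (limma adjusted p = 0.00995). Chd7, the remodeler mutated in CHARGE syndrome, passed downward at -2.30 ± 0.82 (limma adjusted p = 0.0469), but its ABCG2 arrays read -0.65 and -3.88. The Chd7 difference was -3.92 without ABCG2 replicate 1 and -0.69 without ABCG2 replicate 2, and the call was lost without mock replicate 1 (-2.27), 2 (-2.32) or 3 (-2.32). Under quantile normalization the calls of Chd9 (0.73, limma adjusted p = 0.0888) and Chd7 (-1.35, limma adjusted p = 0.0649) were lost, so that of this group Chd6 alone stayed called (1.16); Chd1l rose by 1.04. Chd8, a regulator of beta-catenin targets, did not pass at 0.50 ± 0.28 (limma adjusted p = 0.161). Chd7 and Arid5a were the only genes among the 53 whose ABCG2 arrays lay 1 or more apart, while in 85 of the 99 these arrays lay within 0.5.

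In the Ino80 group the ATPase and subunits of 1 complex moved apart. Ino80e rose by 0.87 ± 0.14 and Ino80, the ATPase, by 0.60 ± 0.15, whereas Ino80d fell by -0.97 ± 0.15, from 0.13, -0.09 and 0.19 on mock to -0.82 and -0.97. Ino80dos, a noncoding transcript opposite to Ino80d, fell by -0.80 ± 0.23; the probe sets of a gene and its antisense neighbour may share signal, and this was not tested. The call of Ino80 was lost without ABCG2 replicate 1 (0.54, limma adjusted p = 0.0535), and that of Ino80dos without mock replicate 1 (-0.70), mock replicate 3 (-0.79) or ABCG2 replicate 2 (-0.48). All 4 calls were lost under quantile normalization, at 0.56 for Ino80e, 0.17 for Ino80, -0.72 for Ino80d and -0.46 for Ino80dos (limma adjusted p = 0.068, 0.613, 0.0576 and 0.225). Among the readers, the bromodomain Brd genes moved least as gene means, with differences from -0.37 to 0.36. Single probe sets, tested on their own, moved more: 1 of Brd1 rose by 0.96, 1 of Brd8 rose by 0.92 and 1 of Brd2 fell by -0.66. The other probe sets of these 3 genes did not pass. Brd3, a BET protein that binds acetylated histones, alone passed, at -0.37 ± 0.13 (limma adjusted p = 0.0410), and of its 4 probe sets 1 passed, at -1.68. Its call was lost without mock replicate 1 (-0.36), 2 (-0.37) or 3 (-0.39) or ABCG2 replicate 1 (-0.29), and under quantile normalization (-0.20).

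Quantile normalization of the arrays lowered these counts to 18 that rose (16.2% of all genes) and 5 that fell (17.4% of all genes). Of the 53 genes called in the deposited values, 22 passed under all 13 alternative settings that held them, 17 upward and 5 downward; the 5 were Kdm7a, Kmt5a, Arid3a, Arid5b and Sirt7.

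Probe sets of the same gene often disagreed. Of the 190 probe sets 61 rose (31.5% of all 16255 probe sets) and 33 fell (25.3% of all), each tested on its own. Among the 55 genes with several, the probe sets had 1 sign in 28, and the median spread between the highest and lowest was 0.65. Of the 26 such genes called by their mean, 21 had probe sets of 1 sign and 15 had every probe set passing alike. In 3 genes probe sets passed in opposite directions, and these are named after their values were seen: Kdm5a, a demethylase of active promoter marks, from -1.52 to 0.99; the X-linked Kdm6a (UTX) from -0.76 to 1.06; and Chd4, the ATPase of NuRD, from -0.86 to 0.59. None of the 3 passed as a gene mean. In all, 16 genes that did not pass as a mean had at least 1 probe set that did, so the count of genes that did not pass is not a count of transcripts without change.

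**Figure D4:**
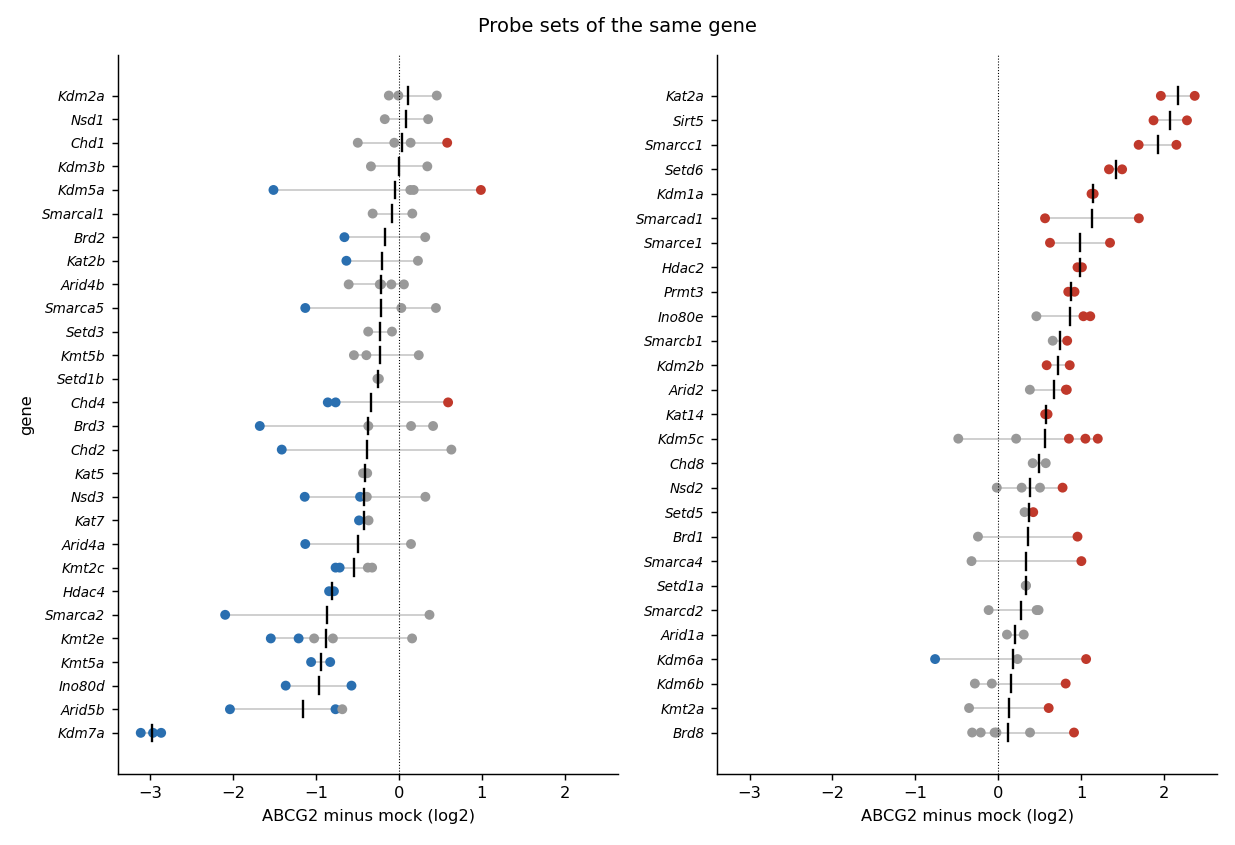
Difference between ABCG2 and mock in log2 (horizontal axis) of each probe set (points, red where it rose, blue where it fell, grey where it did not pass) for the 55 genes with several probe sets (rows), with the gene's mean as a black tick. In Kdm5a they run from -1.52 to 0.99 and in Smarca2 from -2.10 to 0.37, while the 3 of Kdm7a lie between -3.12 and -2.87.

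Partners of these enzymes outside the name rule were followed in lists of complexes, 103 of 115 listed genes being measured; 33 rose and 17 fell, where 35.6% of all genes rose and 26.2% fell. Of 17 other methyltransferases and their partners 8 rose and 1 fell (median 0.36): Smyd2, which methylates p53 among others, rose by 2.20 ± 0.24 and Smyd5 by 1.56 ± 0.16, while Wdr5, a core of the COMPASS complexes, fell by -0.40. Of the partner subunits of BAF, 10 of 13 listed were measured, 4 rose and none fell (median 0.25), led by Bcl11a, also a lymphoid and globin regulator, at 2.37 ± 0.18 and Bcl7a at 2.23 ± 0.30. The corepressor subunits of deacetylase complexes were mixed, 5 rising and 4 falling of 19 (median -0.07), where the NuRD subunits Mta1 and Mta3 rose by 1.85 ± 0.15 and 1.62 ± 0.15 and the methyl-DNA reader Mbd2 and the Sin3 subunit Sap30 fell by -1.14 and -0.97.

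Acetyltransferases outside the name rule were also mixed, with 3 of 8 rising and 2 falling (median 0.11). Elp3, the catalytic subunit of Elongator, rose by 1.39 ± 0.14, and the nuclear receptor coactivator Ncoa1 fell by -1.52 ± 0.16. Their partner subunits had 4 rising and 4 falling of 20 (median 0.10), led upward by Tada2a of the ATAC complex at 2.18 ± 0.21. Other demethylases had 2 rising, 1 falling and a median of 0.39 over 7. Of 22 partners of ISWI, SWR1 and INO80 remodelers 7 rose and 5 fell (median 0.12): the helicase Ruvbl1 rose by 1.36 ± 0.15 and the SWR1 subunit Znhit1 fell by -2.14 ± 0.13. Of 20 measured genes of dividing cells 4 rose and 7 fell, with a median of -0.35. The 4 that rose were all Mcm genes, led by Mcm2 at 0.99 ± 0.19, while Mcm3 and Mcm5 did not pass. The 7 falls were led by Kif11, Prc1 and Mki67 at -1.16, -1.15 and -1.11.

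Between the GFP-positive and GFP-negative fractions of EZH2-Mt marrow, few of these genes differed 2-fold or more, and the same held over all genes. The counts moved with normalization and with the choice of probe set, as given further below. With 1 array each there is no replicate check and no test. None of the 99 was 2-fold or more higher in GFP-positive cells (1.77% of all genes), and 1 was 2-fold or more lower (1.34% of all genes). The 1 gene was Chd6, which read -0.57 in GFP-positive and 0.47 in GFP-negative cells, a difference of -1.04, with the mock arrays between at -0.04 to 0. At 1.5-fold, 7 were higher (7.88% of all genes) and 10 lower (6.65% of all genes). The median difference was -0.04, beside 0.01 over all genes. The spread between mock arrays gives the scale: pairs of mock arrays differed 2-fold either way in 1, 1 and 0 of the 99 (1.61%, 1.85% and 0.358% of all genes), and the ABCG2 pair in 3 (4.34% of all genes).

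Below the 2-fold limit, the next lower genes in GFP-positive cells were Smarca2 at -0.88 and Sirt5 at -0.79, and the highest was Prmt7, at 0.70; they are named after their values were seen. Smarca2 and Sirt5 were below all mock arrays in GFP-positive cells and above them in GFP-negative cells. Beside these values, the median GFP-positive minus GFP-negative difference was 0.86 for neutrophil markers, 0.22 for monocyte and macrophage, 1.01 for B lineage, 1.27 for erythroid and 0.20 for stem and progenitor markers, and 0.27 for genes of dividing cells. It was -1.08 for T and NK markers (3 of 8 listed measured) and -0.41 for megakaryocyte and platelet markers (4 of 7 measured). Some markers had the sign opposite to their list. Among these were Nkg7 (T and NK) at 0.31, Gp1bb (platelet) at 0.49 and Cd14 and Ccr2 (monocyte) at -0.30 and -0.33. Of the B lineage, 5 of 12 were measured, and Il7r read -1.43. The part of these cell types in the differences was not tested.

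**Figure D5:**
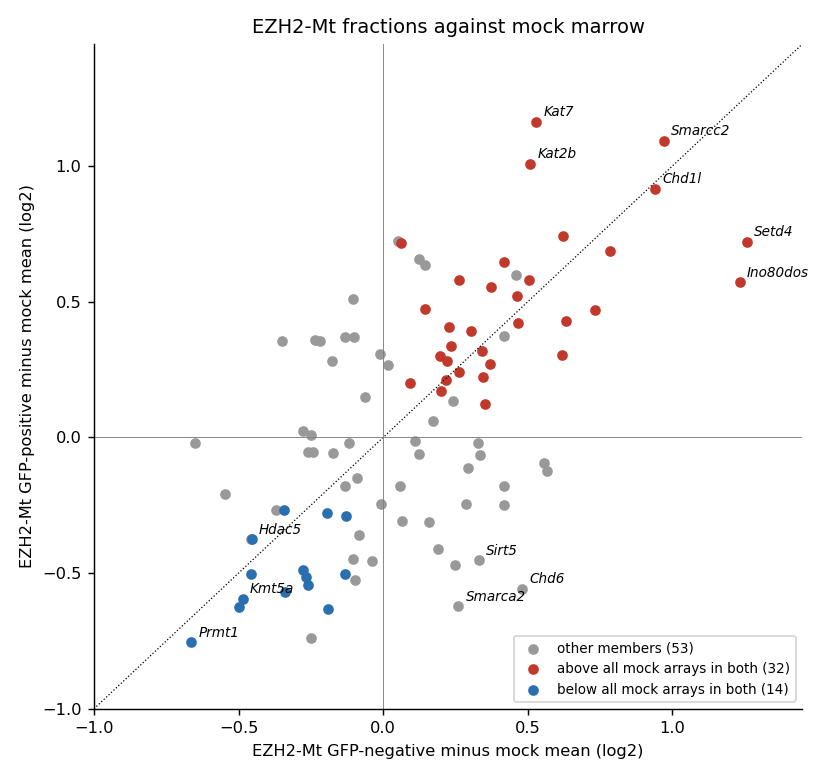
Each gene's GFP-negative value minus the mock mean (horizontal axis, log2) against its GFP-positive value minus the mock mean (vertical axis, log2), 1 array per fraction, in red where both fractions were above and in blue where both were below all mock arrays. Both axes use the same mock mean, so the points lie along the diagonal in part for that reason. Smarcc2 and Chd1l are high on both axes, Prmt1 is low on both, and Chd6 and Smarca2 lie below the diagonal.

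Against the mock range, both EZH2-Mt fractions were above all 3 mock arrays in 32 genes (27.4% of all genes) and below all 3 in 14 (20.6% of all genes), again without a test. The fractions share the mock arrays with the ABCG2 comparison. Mock marrow was unsorted and EZH2-Mt marrow sorted, so sorting and transgene cannot be told apart here. Smarcc2 (BAF170), the paralog of Smarcc1 in the BAF scaffold, stood highest, with 0.55 and 0.67 on the GFP-negative and GFP-positive arrays and -0.59, -0.47 and -0.20 on mock, or 0.97 and 1.09 above the mock mean. Setd4 was above by 1.26 and 0.72, Chd1l by 0.94 and 0.92, Ino80dos by 1.23 and 0.57, and the acetyltransferases Kat7 (HBO1) by 0.53 and 1.16 and Kat2b (PCAF) by 0.51 and 1.01. Both of these acetyltransferases rest on 1 of their 2 probe sets: the other probe set of Kat7 read -0.14 and 0.07 against 0 to 0.22 on mock, and the other of Kat2b read 0.22 in GFP-negative and -0.34 in GFP-positive cells against 0 to 0.14 on mock. These 6 genes have unlike roles, from complex scaffold and writers to remodeler and noncoding RNA.

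Prmt1 was furthest below mock in both fractions, by -0.66 and -0.75. Arid4b, a Sin3 complex subunit, was lower by -0.50 and -0.62 and Kmt5a by -0.48 and -0.59. The alternative BAF subunits Arid1a and Arid1b were lower by -0.46 and -0.50 and by -0.34 and -0.57, and Hdac5 by -0.45 and -0.37. Arid1a rests on 1 of its 2 probe sets. The other read -0.22 in GFP-negative and 0.13 in GFP-positive cells, against -0.33 to 0 on mock. The 5 probe sets of Arid4b were mixed as well. Of them, 1 read 0.46 and 0.13 against -0.21 to 0.21 on mock, while others lay below all mock arrays in both fractions. By family, 9 of the 21 lysine methyltransferases and 5 of the 6 Brd genes were above mock in both fractions, with 1 and 0 below. Over all genes 27.4% were above and 20.6% below, and differences between a family and these shares were not tested. Both counts are of gene means. Neither probe set of Brd2 was above all mock arrays in both fractions. For Brd8, 1 probe set read -0.27 in GFP-negative cells against 0 to 0.35 on mock. The Brd genes, which moved least in ABCG2 marrow as gene means, were here by a median of 0.29 above mock in GFP-negative and 0.24 in GFP-positive cells. Over all genes these medians were 0.04 and 0.06.

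Set side by side, some genes had like signs and others opposite signs in the ABCG2 and EZH2-Mt comparisons, which share the mock arrays. Setd4 was higher by 2.28 in ABCG2 marrow and by 1.26 and 0.72 in the EZH2-Mt fractions, and Kmt5a was lower by -0.95 in ABCG2 marrow and by -0.48 and -0.59 in the fractions. Prmt1 was higher by 1.54 in ABCG2 marrow and lower by -0.66 and -0.75 in the fractions. Differences between ABCG2 and EZH2-Mt marrow were not tested.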

How the data were processed

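RNA of mouse bone marrow was measured on 7 Affymetrix Mouse430_2 arrays in 4 groups. The authors deposited log2 values (the base is not stated and is taken as 2), normalized and, per the file headers, filtered on raw signal and on detection (Present or Marginal) on 100% of the arrays. The submitters' processing notes name MAS5; scaling between arrays is not given in the sources used here. Of 16309 probe sets, 54 controls were set apart, 14229 had 1 gene symbol, 483 several and 1543 none. A gene's value was the mean of its probe sets.

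ABCG2 was compared with mock with limma 3.58.1 in R 4.3.3 (lmFit, eBayes, two-sided, Benjamini-Hochberg over 8378 genes, 3 residual degrees of freedom), tested on simulated data. Sorted fractions were counted past 2-fold with no test. The number of arrays limits the precision. Named genes were, per family, the 3 largest rises and falls that passed, paralog sets that split, and the extremes of the EZH2-Mt fractions. The members and lists were chosen with earlier results of these data known. Alternatives covered normalization, array weights, a replicate block, robust variance, probe set choice, the fold limit and leaving out each array. Sequences are RefSeq's, GRCm38.p6.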

Additional observations from a re-analysis of the deposited data

How the results depend on the processing

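Of the 53 genes called, 30 lost the call under quantile normalization (12 of them there alone), 18 lost it without at least 1 array, and 0 changed sign under any of the 13 alternatives. Quantile normalization gave 18 that rose and 5 that fell, against 38 and 15; the cause was not tested. Leaving out 1 array at a time gave 32 to 34 that rose and 10 to 16 that fell. The replicate numbers that mock and ABCG2 share do not come with a stated pairing, and only 2 numbers are shared. The deviations of mock 1 and ABCG2 1 correlated at 0.07 over genes and those of mock 2 and ABCG2 2 at -0.06. With 2 ABCG2 arrays the deviations mirror each other, so these values cannot decide whether the numbers pair the arrays. With the replicate block 34 rose and 13 fell. Centred medians (38 and 15), array weights (35 and 15), robust variances (37 and 14), the probe set of largest SD (39 and 20), probe sets without a suffix (31 and 16) and a test per probe set (43 and 20) stayed within 1.5 times.

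Between the GFP fractions, genes past the limit upward numbered 2 under quantile normalization, 5 by the probe set of largest SD and 7 at 1.5-fold, against 0, and downward 4, 4 and 10, against 1. A lower limit admits more genes by construction; for the other settings the cause was not tested. Kat2b, not called at -0.20, was 0.23 by the probe set of largest SD and also 0.23 with probe sets without a suffix, and ran from -0.51 to 0.10 when 1 array was left out, the latter without ABCG2 replicate 1; the cause was not tested. The number of arrays, 2 and 3, and the filter on detected signals limit what small differences can show.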

Other observations

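Subunits of the ATAC and SAGA acetyltransferase complexes, which both use Kat2a, were looked at after their values were seen. Tada2a, specific to ATAC, read -0.51, -0.27 and 0.12 on mock and 1.83 and 2.08 on the ABCG2 arrays. The subunits shared by both complexes, Sgf29 and Tada3, differed by 1.06 ± 0.12 and 0.71 ± 0.14 (limma adjusted p = 0.000564 and 0.00442). Tada2b, the SAGA counterpart of Tada2a, differed by -0.62 ± 0.14 (limma adjusted p = 0.00802). Of the other SAGA subunits on the list, none passed: Tada1 was at -0.07 ± 0.17, Supt3 at -0.34 ± 0.13, Trrap at 0.35 ± 0.19 and Supt7l at 0.49 ± 0.20. Wdr5, which ATAC shares with the COMPASS complexes, fell by -0.40 ± 0.13 (limma adjusted p = 0.0357). A test over such a list would not be independent of the choice and was not run.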
